A study of Oryctolagus cuniculus with 6 samples.

Results

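The annexins described here are 9 genes, ANXA1 to ANXA8 and ANXA11, of 22190 genes in the count table of rabbit limbal stem cells (LSCs). They were chosen by name as annexins of membrane repair and of the resolution of inflammation, and selected on their counts in the preconditioned against the fresh libraries, which were already known. Of the 9 names, 8 were row names of the table. ANXA7 was found under the row LOC100338267, which the table describes as annexin A7 and which the RefSeq gene table names ANXA7 under the same gene identifier. RNA-seq was performed on primary LSCs of Oryctolagus cuniculus that grew out of limbal explants, in 3 libraries per group. In the fresh group the explants were cut from fresh corneas. In the preconditioned group the corneas were first frozen in liquid nitrogen for 1 week in a cryomedium with dimethyl sulfoxide, serum and IL-1β, an inflammatory cytokine. Cells of both groups then grew in keratinocyte culture medium. Freezing and IL-1β were applied together, so their effects cannot be told apart, and neither strain, age nor the animal behind each library is given in the sources used here. Nothing states that the libraries of a group came from separate animals, so the spread between them may be partly technical.

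Annexins are soluble proteins that bind membranes rich in acidic phospholipids such as phosphatidylserine when calcium rises. When a plasma membrane tears, calcium flows in and annexins gather at the wound, where they help to fold, cap and reseal it. Annexin A1 is also released from cells, acts on formyl peptide receptors, and is known as a mediator of the resolution of inflammation that glucocorticoids induce. The corneal epithelium and its limbal stem cells line a surface that is exposed to repeated injury, and annexins are among the abundant cytoplasmic proteins of such stratified epithelia.

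The libraries held 31952352 to 34327534 counts on genes. Values below are CPM, the counts relative to library size, scaled by edgeR's TMM factors, or FPKM as the authors deposited them where the levels of different genes are compared. Of 22190 genes, 15029 passed edgeR's filter on low counts, all 9 annexins among them, and were tested by its quasi-likelihood test. The study's cutoffs were applied to call a gene, namely an adjusted p (Benjamini-Hochberg) up to 0.05 together with a change of 1 or more on the log2 scale in either direction. These cutoffs called 163 genes higher and 181 lower after preconditioning, 142 higher and 423 lower when libraries were scaled by their size alone, and 616 higher and 930 lower without preconditioned replicate 1. On the first principal component of log2 CPM, preconditioned replicate 1 lay at 8.13, between the fresh libraries (at most −41.1) and the other preconditioned libraries (at least 58.3). For the annexins and the genes that act with them, calls and directions that change without that library are given both ways. All 7 epithelial markers found in the table were detected, including KRT5, KRT3, TP63 and PAX6, with a summed level of 9758 to 13488 CPM in fresh and 9167 to 13502 CPM in preconditioned libraries, most of it KRT5. TP63, the gene of the stem cell marker p63, had 226 to 246 CPM in fresh and 112 to 183 CPM in preconditioned libraries (log2 fold change −0.77, adjusted p = 0.059 by edgeR). PAX6 and EPCAM had log2 fold changes of 0.81 and 0.50 (adjusted p = 0.11 and 0.060 by edgeR), with groups that overlapped for PAX6 and did not for EPCAM. KRT3, the gene of the differentiation marker K3, varied widely, with 409 to 2655 CPM in fresh and 239 to 801 CPM in preconditioned libraries. Its log2 fold change was −1.21 (adjusted p = 0.30 by edgeR). Those of KRT5 and CDH1 were −0.04 and −0.07 (adjusted p = 0.90 and 0.77 by edgeR). No epithelial marker passed both cutoffs, and the part of cell composition in the annexin values was not tested. KRT15, a keratin of the limbal basal layer, was at most 9.71 CPM in any library. KRT12 and KRT14, both on the list, were not analysed here. The 3 conjunctival markers found in the table, KRT7, KRT13 and KRT19, summed to 2653 to 4679 CPM in fresh and 1909 to 4621 CPM in preconditioned libraries. KRT19 was the largest of them in every library. The 8 stromal markers summed to 467 to 1009 CPM in fresh and 765 to 1606 CPM in preconditioned libraries. Of the 4 melanocyte markers, only DCT exceeded 3 counts in a library. In such bulk samples, fewer cells of a type and less RNA per cell cannot be told apart.

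In LSCs of both groups the annexins spanned a wide range of levels and kept the same order. ANXA1 had the highest mean FPKM, 6829 ± 770 (SD, n = 3) in the fresh group and 13586 ± 1130 (SD, n = 3) in the preconditioned group. ANXA2 followed with 3005 ± 237 and 3981 ± 289 FPKM (SD, n = 3 each). These genes were among the most counted in the whole table, since ANXA1 ranked 3 to 5 in the fresh libraries and 2 in every preconditioned library, and ANXA2 ranked 9 or 10 throughout. Below them came ANXA8 at 780 FPKM on average over the 6 libraries, ANXA3 at 295, ANXA5 at 122, ANXA4 at 101, ANXA11 at 45.5, ANXA7 at 23.2 and ANXA6 at 19.2 FPKM. Most neighbors in this order did not overlap in any library. The exceptions were ANXA5 against ANXA4, and ANXA7 against ANXA6, where the upper gene was higher in 4 of 6 libraries and the ranges overlapped. The level of ANXA7 rests on the gene length used by the authors, whose definition is not given in the sources used here. Its place in this order depends on that length. By CPM, which take no account of gene length, ANXA7 averaged 260 in the fresh and 330 in the preconditioned group. That was above ANXA5 (194 and 199 CPM), ANXA4 (173 and 250 CPM) and ANXA6 (39.4 and 72.6 CPM).

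**Figure D1:**
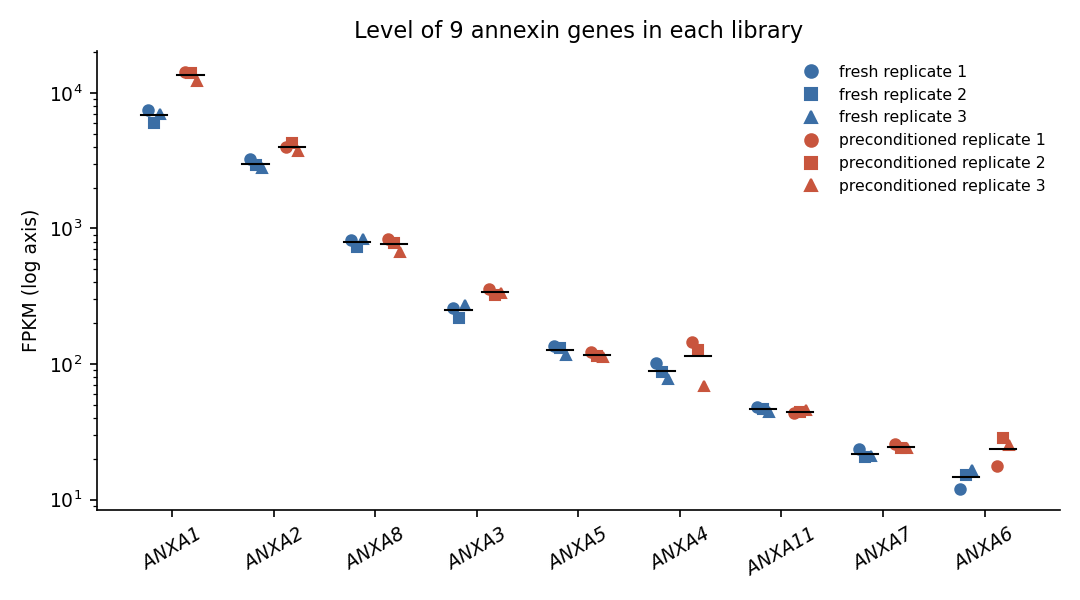
FPKM of 9 annexin genes on a log axis, with 1 point per library (3 fresh, 3 preconditioned) and a bar at each group's mean. Genes are ordered by their mean over the 6 libraries, from ANXA1 at 5982 to 14359 FPKM down to ANXA6 at 11.9 to 28.3 FPKM.

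Other annexin genes were close to absent. ANXA9, which lacks calcium-dependent membrane binding, had at most 4 counts in a library, and ANXA13, an annexin of the intestine and kidney, had at most 1. Both failed the filter on low counts and were not tested. No other row of the table was described as an annexin, and ANXA10 was not analysed here.

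ANXA1 encodes the annexin that binds formyl peptide receptors after its release, and that was first known as an inhibitor of phospholipase A2. Its level was 9419, 7489 and 8745 CPM in the fresh libraries and 19754, 20502 and 17157 CPM in the preconditioned libraries. Every preconditioned library lay above every fresh library, and the lowest of them was well apart from the highest fresh value. It averaged 8551 ± 979 CPM in fresh and 19138 ± 1756 CPM in preconditioned LSCs (SD, n = 3 each), which is 1.16 on the log2 scale, with a standard error (SE) of 0.15. ANXA1 alone took 0.794% to 0.993% of all counts in the fresh libraries and 1.63% to 1.91% in the preconditioned libraries.

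ANXA2 encodes the partner of S100A10, with which it forms a complex on the cell surface that binds plasminogen and its activator. Its level was 4560, 4063 and 3886 CPM in the fresh libraries and 6038, 6887 and 5727 CPM in the preconditioned libraries. The groups did not overlap, with a log2 fold change of 0.58 (SE 0.13), close to that of ANXA3. ANXA1 made up 58.9% to 62.6% of the summed FPKM of the 9 annexins in the fresh libraries and 71.1% to 72.3% in the preconditioned libraries, while ANXA2 made up 25.1% to 28.8% and 19.9% to 21.6%. Together, the 9 genes held 1.57% ± 0.138 (SD, n = 3) of all counts in the fresh group and 2.63% ± 0.204 (SD, n = 3) in the preconditioned group. Without ANXA1, the sum of the other annexins came to 6261 ± 440 CPM in fresh and 8782 ± 773 CPM in preconditioned LSCs (SD, n = 3 each).

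ANXA6 encodes the largest annexin, which forms a cap over membrane lesions. It was expressed at 32.4, 41.4 and 44.4 CPM in the fresh libraries and at 52.4, 88.6 and 76.7 CPM in the preconditioned libraries. Preconditioned replicate 1 was the lowest of its group but still lay above all fresh libraries. The log2 fold change was 0.88 (SE 0.22), and 1.06 without preconditioned replicate 1. The leukocyte marker CD68, a lysosomal protein of macrophages that other cells also express, was 93.4 to 129 CPM in the fresh libraries and 121, 300 and 288 CPM in preconditioned replicates 1 to 3. The whole leukocyte list of 4 genes summed to 102 to 134 CPM in fresh and 124 to 313 CPM in preconditioned libraries. The pan-leukocyte marker PTPRC was at most 1.503 CPM, and the T cell marker CD3E had at most 3 counts in any library. The 3 endothelial markers, mostly PECAM1, summed to 2.60 to 2.99 CPM in fresh and 1.03 to 13.01 CPM in preconditioned libraries, with the same order of preconditioned libraries as ANXA6. Stromal markers were highest in preconditioned replicate 2, at 1606 CPM. The part of other cell types in the difference of ANXA6 was not tested.

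ANXA4 encodes an annexin of epithelial cells that assembles into arrays on membranes. Its level was 198, 170 and 151 CPM in the fresh libraries and 313, 288 and 150 CPM in the preconditioned libraries. Preconditioned replicate 3 was the lowest of all 6 libraries, whereas preconditioned replicates 1 and 2 were above all fresh libraries. The groups therefore overlapped, and ANXA4 had the largest spread among the annexins within the preconditioned group, with an SD of 0.58 on the log2 CPM scale. Its log2 fold change of 0.53 (SE 0.27) was 0.80 without preconditioned replicate 3 and 0.33 without preconditioned replicate 1.

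ANXA5 encodes the annexin whose protein is used as a probe for phosphatidylserine on apoptotic cells. It was expressed at 207, 199 and 175 CPM in the fresh libraries and at 204, 202 and 190 CPM in the preconditioned libraries. All preconditioned values lay within the fresh range, and the log2 fold change was 0.04 (SE 0.11).

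**Figure D2:**
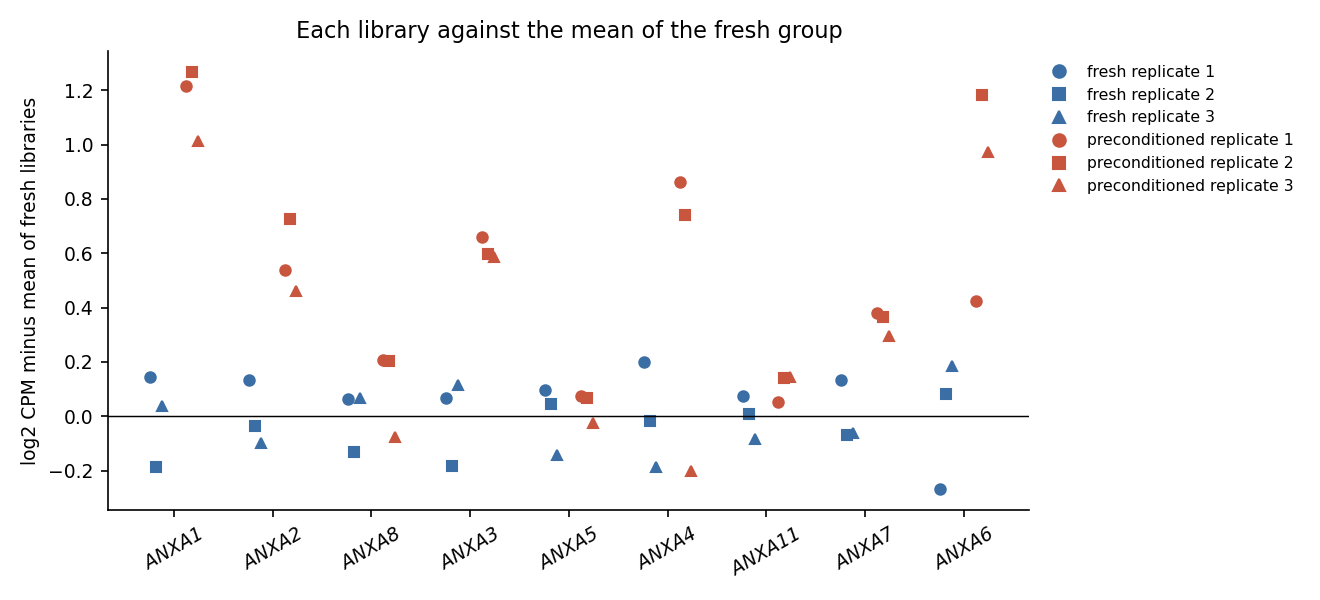
log2 CPM of 9 annexin genes in each library minus the mean of the 3 fresh libraries, with 1 point per library and genes in the order of their levels. For ANXA1 the preconditioned libraries lay 1.01 to 1.27 above the fresh mean, and for ANXA4 preconditioned replicate 3 lay at −0.20 while the other preconditioned libraries were at 0.74 and 0.86.

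ANXA3, ANXA7 and ANXA11 are known from secretion and trafficking. ANXA3, known from the granules of neutrophils, was expressed at 402, 338 and 415 CPM in the fresh libraries and at 605, 581 and 575 CPM in the preconditioned libraries. The groups did not overlap and the preconditioned libraries lay close together, with a log2 fold change of 0.61 (SE 0.12). ANXA7, or synexin, promotes the fusion of secretory granules. It had 284, 247 and 248 CPM in the fresh libraries and 337, 335 and 318 CPM in the preconditioned libraries, again without overlap, and a log2 fold change of 0.34 (SE 0.11). ANXA11 encodes an annexin with a long N-terminal tail that links RNA granules to lysosomes. Its values were 54.0, 51.5 and 48.4 CPM in the fresh libraries and 53.2, 56.5 and 56.6 CPM in the preconditioned libraries. The groups overlapped, with a log2 fold change of 0.11 (SE 0.10).

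ANXA8, an annexin of stratified epithelia, was the third most expressed of the family. It was at 1032, 901 and 1033 CPM in the fresh libraries and at 1139, 1137 and 937 CPM in the preconditioned libraries. Preconditioned replicate 3 lay within the fresh range, so that the groups overlapped, and the log2 fold change was 0.12 (SE 0.13). The small positive values of ANXA5, ANXA8 and ANXA11 depend on the scaling, since they were −0.13, −0.05 and −0.06 when libraries were scaled by size alone, which moved the median of all tested genes from 0.01 to −0.16. Relative to that median, each was at most 0.11 away under either scaling.

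Because the family was put forward for this comparison, its differences are a description and no p is given for a single member. In the fit across all genes, ANXA1 was the only annexin to pass both cutoffs (1 of 9), where 2.29% of all tested genes passed in either direction, 1.08% higher and 1.2% lower. With the adjusted p alone, ANXA1 and ANXA3 passed (2 of 9), against 5.08% of all tested genes. With DESeq2, 1 of 9 passed as well, again ANXA1, against 7.78% of its tested genes. ANXA1 did not pass without any one of the 3 fresh libraries or without preconditioned replicate 2, with log2 fold changes of 1.07 to 1.24 when each library was left out. Without preconditioned replicate 1, ANXA6 passed along with ANXA1 (2 of 9), and so did 9.99% of all genes tested in that fit. With library size as the only scaling, the log2 fold change of ANXA1 was 0.99, just under the cutoff, and it was 0.995 in both limma fits on FPKM, where no annexin passed. All 3 preconditioned libraries lay above all 3 fresh libraries for 5 of the 9 annexins (ANXA1, ANXA2, ANXA3, ANXA6 and ANXA7), and for none did they lie below. The groups were apart for 36.7% of all tested genes, 17.9% in the higher direction and 18.8% in the lower. The median log2 fold change of the annexins was 0.53, and that of all tested genes was 0.01, with the middle 50% between −0.37 and 0.37.

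**Figure D3:**
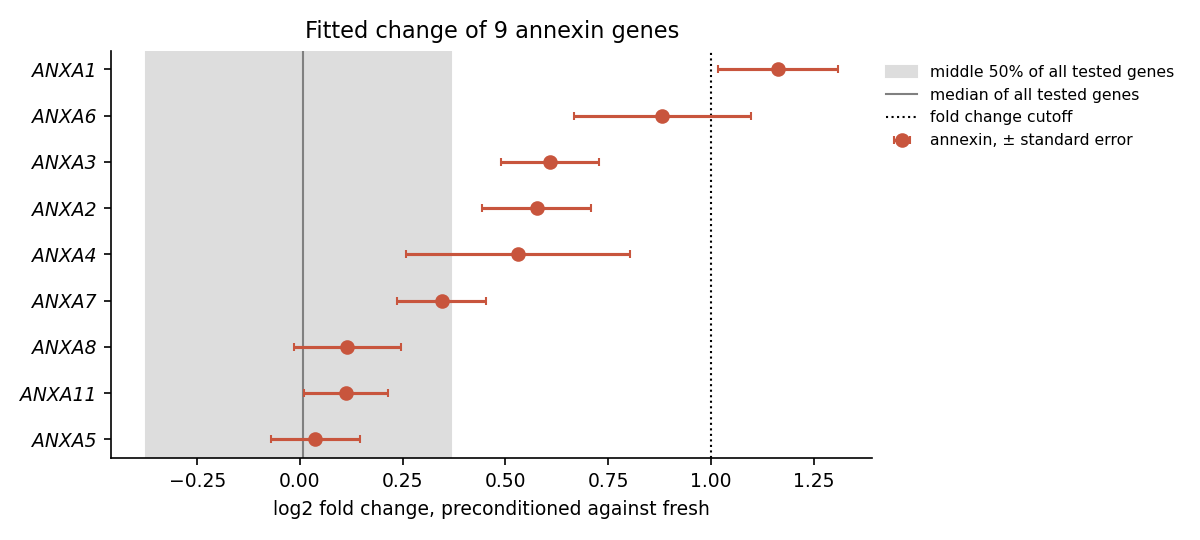
log2 fold change of 9 annexin genes between the preconditioned and the fresh group (edgeR, 3 libraries each), with bars of 1 standard error. The grey band is the middle 50% of all tested genes, from −0.37 to 0.37, and the dotted line is the cutoff of 1, which ANXA1 (1.16) alone exceeds.

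Replicates of most annexins were close to each other. The median SD of log2 CPM within a group was 0.13 in the fresh and 0.14 in the preconditioned libraries over the annexins, and 0.20 and 0.29 over all tested genes, many of which had far fewer counts. Within the preconditioned group, ANXA4 (0.58) and ANXA6 (0.39) exceeded the median of all genes. In the deposited annotation, 7 of the 9 annexins carried both calcium ion binding and calcium-dependent phospholipid binding. The exceptions were ANXA2, which had no GO term in the table, and ANXA7. The second term was given to 42 genes in all.

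The pattern over the 6 libraries was compared between genes by the mean absolute difference of their log2 CPM deviations from the fresh mean. Among the annexins, ANXA5 and ANXA11 were nearest to each other (0.06), ANXA2 was nearest to ANXA7 (0.13), and ANXA1 was nearest to ANXA6 (0.29). Of 11866 genes compared with ANXA1, the nearest were TMPRSS11D, an airway-type transmembrane serine protease (0.05), S100A13, a calcium-binding protein (0.07), and ACYP2, an acylphosphatase (0.09), where the median gene was at 0.70. For ANXA2 they were CHM (0.05), MINDY3 (0.05) and DECR1 (0.06), with a median of 0.43, and for ANXA8 they were BAIAP2L1 (0.02), TOM1L1 (0.03) and FOXRED1 (0.03), with a median of 0.30. These distances cover 6 libraries in 2 groups and describe likeness only. Rows under a LOC name, other than that of ANXA7, were not among the genes compared.

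Genes that act with annexins were examined in 6 lists, and 1 of their 56 tested genes passed both cutoffs (1.79%), a share near the 2.29% of all tested genes. With the adjusted p alone, 8 of 56 passed (14.3%), against 5.08% of all tested genes. These 8 were higher in the preconditioned group, but the count and the direction depended on the libraries and the scaling. The settings were planned for counts past both cutoffs, and are read here for the adjusted p alone. Without preconditioned replicate 1, 18 of 56 passed, 16 higher and 2 lower (ANO6 and ATP11A), against 25.2% of all genes in that fit. The count was 0 without any one fresh library or without preconditioned replicate 2, and 1 without preconditioned replicate 3. With library size alone it was 3, of which 1 was lower, a share of 5.36% against 8.92% of all genes. The gene past both cutoffs was PLAU, urokinase, a protease that turns plasminogen into plasmin. It rose from 2362, 2260 and 2093 CPM in the fresh libraries to 4108, 6450 and 4786 CPM in the preconditioned libraries. The groups did not overlap, and the log2 fold change was 1.19 (SE 0.18, adjusted p = 0.031 by edgeR, with 1.6e-06 to 0.13 over the alternatives). PLAU no longer passed both cutoffs without any one of the fresh libraries (log2 fold change 1.14 to 1.23) or without preconditioned replicate 2 (0.99) or 3 (1.24), and its log2 fold change was just under the cutoff in both limma fits on FPKM (0.998 and 0.999). The other 3 plasmin partners of annexin A2 did not pass. PLAT, the tissue plasminogen activator that annexin A2 binds, varied widely, with 161, 348 and 99.8 CPM in the fresh and 490, 190 and 125 CPM in the preconditioned libraries (log2 fold change 0.403 with an SE of 0.62, and −0.38 without preconditioned replicate 1). PLAUR, the urokinase receptor, was at 0.64 (adjusted p = 0.22 by edgeR). This was 0.37 without preconditioned replicate 1, and 0.37 to 0.93 over the alternatives. The median of the list was 0.52.

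S100 proteins are small calcium sensors that bind the N-terminal tails of annexins. None of the 4 tested genes of this list passed both cutoffs in edgeR or DESeq2, and 2 of 4 had an unadjusted edgeR p under 0.05, against 30.6% of all tested genes. S100A6 had 4698, 3401 and 3484 CPM in the fresh and 6817, 6072 and 6250 CPM in the preconditioned libraries. Its groups did not overlap, but its log2 fold change of 0.72 (SE 0.16, adjusted p = 0.0499 by edgeR, with 0.0021 to 0.17 over the alternatives) was under the cutoff of 1. S100A10, which joins ANXA2 in a complex, had 1126 ± 196 and 1464 ± 210 CPM (SD, n = 3 each) and overlapping groups, with a log2 fold change of 0.38 (SE 0.17, adjusted p = 0.19). S100A11, a partner of annexin A1, was at 0.40 (adjusted p = 0.066 by edgeR). S100A12 was at −0.41 (adjusted p = 0.52 by edgeR), with log2 fold changes of −0.70 to 0.20 over the alternatives. Its level was 1792 CPM in fresh replicate 3, against 785 and 599 CPM in fresh replicates 1 and 2. The median of the list was 0.39.

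For the receptors of annexin A1 and the enzymes of lipid mediators, 0 of 13 tested genes passed both cutoffs and the median log2 fold change was 0.31. By DESeq2 the count was also 0. In edgeR, 4 of 13 had an unadjusted p under 0.05, against 30.6% of all tested genes, and 2 of 13 an adjusted p of at most 0.05, against 5.08% of all tested genes at any fold. ALOX12, a lipoxygenase of arachidonic acid, had 397 ± 62.8 and 671 ± 95.1 CPM (SD, n = 3 each) and a log2 change of 0.76 (SE 0.16, adjusted p = 0.048 by edgeR, with 0.0019 to 0.16 over the alternatives). DUSP1, a phosphatase that switches off MAP kinases and a target of glucocorticoids, had 165 ± 28.5 and 297 ± 46.0 CPM (SD, n = 3 each) and a log2 change of 0.85 (SE 0.17, adjusted p = 0.044 by edgeR, with 0.00093 to 0.16 over the alternatives). The groups did not overlap for either gene. The adjusted p of S100A6, ALOX12 and DUSP1 was above 0.05 without any one fresh library, without preconditioned replicate 2 or 3, and with library size alone. TSC22D3, another glucocorticoid target, had 38.2 to 51.9 CPM in the fresh and 30.5 to 38.1 CPM in the preconditioned libraries, at a log2 fold change of −0.47 (adjusted p = 0.11 by edgeR). The receptor genes FPR1 and FPR2 had log2 fold changes of −1.03 and 0.38 at low levels (adjusted p = 0.44 and 0.68 by edgeR). Over the alternatives these were −2.60 to −0.56 for FPR1 and −0.50 to 0.71 for FPR2. FPR2 was at 3.77 CPM in preconditioned replicate 2, against 1.19 and 0.95 CPM in preconditioned replicates 1 and 3.

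**Figure D4:**
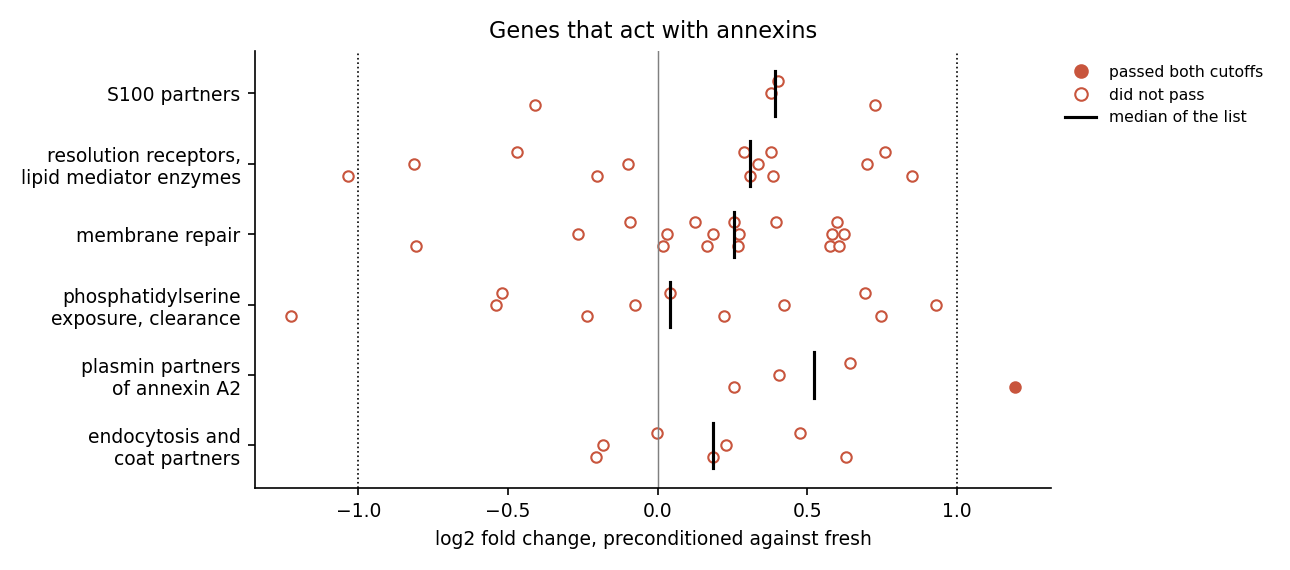
log2 fold change, preconditioned against fresh, of 56 tested genes in 6 lists that act with annexins, with 1 circle per gene and a black bar at each list's median. The filled circle is PLAU (1.19), the only gene past both cutoffs, and dotted lines mark −1 and 1.

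The membrane repair list held dysferlin family members, calpains, caveolae proteins and the ESCRT machinery that sheds wounded membrane. None of its 17 tested genes passed both cutoffs in edgeR or DESeq2 and 8 of 17 had an unadjusted edgeR p under 0.05 (30.6% of all tested genes did), with a median log2 fold change of 0.25 and a range of −0.81 to 0.62. CAPNS1, the small subunit of calpains, had 662 ± 17.9 and 986 ± 189 CPM (SD, n = 3 each) without overlap, a log2 change of 0.57 (SE 0.16, adjusted p = 0.068 by edgeR). This was 0.69 with an adjusted p of 0.011 without preconditioned replicate 1, and 0.43 with an adjusted p of 0.15 without preconditioned replicate 3. AHNAK, a giant scaffold that binds the ANXA2 and S100A10 complex, had 2099 ± 425 and 2530 ± 218 CPM (SD, n = 3 each) and a log2 fold change of 0.27 (SE 0.17, adjusted p = 0.32), which was 0.42 without fresh replicate 1 and 0.12 without fresh replicate 3. VPS4B, an ATPase that takes ESCRT complexes apart, was at a log2 fold change of 0.58 (adjusted p = 0.042 by edgeR, with 0.0019 to 0.16 over the alternatives). DYSF, or dysferlin, was at −0.81 (adjusted p = 0.40 by edgeR) and a low level.

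Genes that expose phosphatidylserine, the lipid annexin A5 binds, or that clear cells bearing it gave 0 of 11 past both cutoffs in edgeR and DESeq2, with 5 of 11 at an unadjusted edgeR p under 0.05 against 30.6% of all tested genes, and a median of 0.04. MFGE8, a secreted bridge between phosphatidylserine and integrins, had 327, 355 and 319 CPM in the fresh and 650, 674 and 582 CPM in the preconditioned libraries. The groups were far apart relative to their spread, and the log2 fold change of 0.93 (SE 0.11, adjusted p = 0.020 by edgeR, with 1.1e-08 to 0.11 over the alternatives) was under the cutoff of 1. TYRO3, a receptor for bridging proteins other than MFGE8, had 0.69 (adjusted p = 0.045 by edgeR, with 0.0038 to 0.15 over the alternatives). Others of the list were lower in the preconditioned libraries without passing. ATP11A, a flippase, had 90.7 to 120 CPM in the fresh and 59.6 to 89.2 CPM in the preconditioned libraries without overlap, at −0.54 (adjusted p = 0.099). ANO6, a scramblase that exposes phosphatidylserine, was at −0.52 (adjusted p = 0.16 by edgeR), and PROS1, a bridging protein, at −1.22 and a low level (adjusted p = 0.27 by edgeR). The log2 fold change of PROS1 was −1.91 to −0.40 over the alternatives. Its level was 6.89 CPM in fresh replicate 3, against 2.20 and 1.97 CPM in fresh replicates 1 and 2. TMEM30A, a chaperone of the flippases that keep phosphatidylserine inside, had 221 ± 24.1 and 370 ± 117 CPM (SD, n = 3 each) with overlap (log2 fold change 0.75, adjusted p = 0.097 by edgeR). This was 0.97 with an adjusted p of 0.0058 without preconditioned replicate 1, and 0.57 with an adjusted p of 0.22 without preconditioned replicate 3. In the list of endocytosis and coat partners, 0 of 7 passed in edgeR and DESeq2, 2 of 7 had an unadjusted edgeR p under 0.05, again against 30.6%, and the median was 0.18. CLTA, a clathrin light chain, and AP2M1, an adaptor subunit, had log2 fold changes of 0.23 and 0.18 (adjusted p = 0.16 and 0.37 by edgeR). These were 0.06 and 0.01 with library size alone, and AP2M1 was at 0.07 without preconditioned replicate 2. CLTB, the other light chain, had 0.47 (adjusted p = 0.048 by edgeR, with 0.0096 to 0.16 over the alternatives).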

How the data were processed

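RNA-seq counts and FPKM of 3 fresh and 3 preconditioned libraries were used, with groups and replicate numbers taken from the sample titles. Reads were aligned by the authors with hisat2, and the raw gene counts they deposited come from htseq-count. The FPKM deposited by the authors are relative to gene length and to the library's total on genes, and are not TMM-scaled. The genome build and strand setting are not given in the sources used here. Of 22177 gene identifiers, 19462 were in the RefSeq gene table of mOryCun1.1, which was used for names only.

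In R 4.3.3, genes were filtered with filterByExpr in edgeR 4.0.16, scaled by TMM, and tested by the robust quasi-likelihood test with condition as the only factor and Benjamini-Hochberg adjustment. DESeq2 1.42.0, limma-trend 3.58.1 on log2(FPKM + 1) and log2(FPKM + 0.1) for genes with a mean FPKM of at least 0.5, other scalings and filters, the replicate number as a block and leaving out each library were the alternatives. Standard errors derive from the test's F statistic. SDs within groups and distances between genes use log2 CPM with a prior count of 2.

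The annexins and the lists were chosen with earlier results of these data known. Named were all annexins, list genes past both cutoffs, the 2 genes per list with the highest mean FPKM, and, for the 3 annexins with the highest FPKM, the 3 genes nearest in pattern. PLAUR, S100A11, S100A12, TSC22D3, FPR1, FPR2, VPS4B, DYSF, TYRO3, ATP11A, ANO6, PROS1 and CLTB were added after their values were seen. Cell type markers were to be given only as list sums and counts. Marker genes with values of their own were likewise added after their values were seen. At 31952352 to 34327534 counts in a library, each annexin had at least 1119 counts in every library. The parts of counting noise and of replicate spread in their precision were not separated.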

Additional observations from a re-analysis of the deposited data

How the results depend on the processing

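The number of annexins past both cutoffs was 1 and stayed at 1 under DESeq2, its size factors and both other filters. It was 0 with library size alone, with limma-trend on log2(FPKM + 1) and on log2(FPKM + 0.1), and 2 (ANXA1 and ANXA3) with the adjusted p alone. Leaving out each library gave 0 to 2. The plasmin partners went from 1 gene to 0 under both limma fits and ranged from 0 to 1 when libraries were left out. With the adjusted p alone, 1 of 4 S100 partners, 2 of 13 genes of resolution and lipid mediators, 1 of 17 of membrane repair, 2 of 11 of phosphatidylserine and 1 of 7 of endocytosis passed, against 5.08% of all tested genes. The log2 fold change of PLAT was −0.38 to 1.04 when libraries were left out, and below 0 only without preconditioned replicate 1. Over all genes, 344 passed both cutoffs, against 1190 with DESeq2, 565 with library size alone (142 higher, 423 lower), 547 with limma-trend on log2(FPKM + 0.1), 763 with the adjusted p alone and 14 (without fresh replicate 2) to 1546 (without preconditioned replicate 1) when libraries were left out. With the replicate number as a block, 30 genes, 0 annexins and 0 plasmin partners passed. Deviations from the group means were not shared by same-numbered libraries (r of −0.11 to −0.07 across genes for the 3 pairs), and none of the 6 libraries correlated best with its own number, so the number is not taken as a pairing. The log2 fold changes of ANXA1, ANXA2, ANXA3, ANXA4, ANXA6 and ANXA7 were positive in each of the 14 alternatives, and those of ANXA5, ANXA8 and ANXA11 were not. The causes were not tested. The part of counting noise in the annexin values was not tested, and FPR1, DYSF, ANXA9 and ANXA13 had too few counts for a firm value.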
